A study of Mus musculus with 6 samples.

Results

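The aminoacyl tRNA synthetases were examined as 36 genes taken by name from the 47729 gene rows of each library, 20 for enzymes that work in the cytosol and 16 for enzymes that work in mitochondria. Their members were chosen by symbol, and all 36 were found once. The methionine enzyme Mars1 is listed under its older symbol Mars, which RefSeq gives as a synonym at the same position. The libraries were 3 of activated CD8+ T cells from mouse spleen given vehicle and 3 of such cells given 2 µM blebbistatin for 24 h, a compound that blocks the ATPase of myosin II. The labels name no genotype, strain, age, way of activation or carrier for the vehicle. They also do not say how the replicates arose, so p-values measure only the spread between these libraries, which may be technical.

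An aminoacyl tRNA synthetase joins an amino acid to its matching tRNA, the step that fixes which codon is read as which residue. Cytosolic enzymes serve the ribosomes that make most proteins, while a separate nuclear-encoded set is imported into mitochondria for the few proteins made there. A pair of unrelated folds, class I and class II, carries out the reaction, and several cytosolic enzymes sit together in the multi-synthetase complex, held by the scaffolds Aimp1, Aimp2 and Eef1e1. Activated T cells grow and divide quickly and need much protein synthesis, and many cytosolic synthetase genes are known targets of ATF4, the transcription factor of the amino acid response, and of MYC.

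Promoter sequences are shown first for the cytosolic members that carry a motif of either factor, and for the Farsa and Farsb pair, whose levels are compared further on. RefSeq promoters of GRCm38.p6, 250 bases before to 50 after an annotated start, were held for 27 of the 36 members, 13 cytosolic and 14 mitochondrial. The letters TGATGNAA, the core of the element bound by ATF4 with C/EBP partners, were searched on both strands and occurred in 5 of 13 cytosolic promoters (38.5%), those of Aars, Gars, Iars, Tars and Yars, and in 0 of 14 mitochondrial ones. Over all 27025 promoters of the table, 4.06% held these letters. The E-box CACGTG, a palindrome that MYC can bind, occurred in 4 of 13 cytosolic promoters (Aars, Farsb, Iars and Tars), in 1 of 14 mitochondrial ones (Ears2) and in 7.24% of all promoters. The letters of both motifs do not overlap each other in these windows, and a match is a description of the sequence, not a bound site. Each line gives the 150 bases before and 50 after the annotated start, 5′ to 3′ on the gene's strand, with matches in capitals. The windows are chr8:111033692-111033891 (+) for Aars, chr6:55037851-55038050 (+) for Gars, chr13:49681980-49682179 (+) for Iars, chr15:11399609-11399808 (-) for Tars, chr4:129189753-129189952 (+) for Yars, chr8:84856836-84857035 (+) for Farsa and chr1:78488848-78489047 (-) for Farsb.
Aars: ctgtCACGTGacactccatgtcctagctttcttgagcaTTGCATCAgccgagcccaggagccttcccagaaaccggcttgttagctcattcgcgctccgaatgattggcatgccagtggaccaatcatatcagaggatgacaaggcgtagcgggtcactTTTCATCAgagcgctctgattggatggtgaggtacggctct
Gars: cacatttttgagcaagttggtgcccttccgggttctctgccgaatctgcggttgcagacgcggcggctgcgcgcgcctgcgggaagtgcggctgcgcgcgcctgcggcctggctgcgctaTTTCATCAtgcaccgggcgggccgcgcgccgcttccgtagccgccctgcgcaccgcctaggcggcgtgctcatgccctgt
Iars: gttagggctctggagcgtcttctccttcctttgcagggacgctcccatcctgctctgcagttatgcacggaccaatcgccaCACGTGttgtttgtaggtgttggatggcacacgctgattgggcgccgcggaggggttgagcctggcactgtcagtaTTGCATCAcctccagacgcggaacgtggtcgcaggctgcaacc
Tars: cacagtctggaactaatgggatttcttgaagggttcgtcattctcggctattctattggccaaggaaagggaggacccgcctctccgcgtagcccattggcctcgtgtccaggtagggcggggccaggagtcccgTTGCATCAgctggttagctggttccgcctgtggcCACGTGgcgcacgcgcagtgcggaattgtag
Yars: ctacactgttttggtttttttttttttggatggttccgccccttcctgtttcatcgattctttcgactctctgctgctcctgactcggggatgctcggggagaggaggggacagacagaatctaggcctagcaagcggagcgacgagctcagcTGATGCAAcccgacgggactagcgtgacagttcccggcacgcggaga
Farsa: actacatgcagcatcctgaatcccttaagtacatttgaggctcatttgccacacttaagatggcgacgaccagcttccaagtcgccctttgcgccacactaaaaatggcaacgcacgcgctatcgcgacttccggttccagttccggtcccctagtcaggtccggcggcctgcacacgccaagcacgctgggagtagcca
Farsb: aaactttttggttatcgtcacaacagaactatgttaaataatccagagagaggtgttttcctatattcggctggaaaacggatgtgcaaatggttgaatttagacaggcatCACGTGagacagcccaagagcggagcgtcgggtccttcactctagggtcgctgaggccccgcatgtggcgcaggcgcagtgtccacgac

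In Aars, TGATGNAA was found at -112 and again at 9 from the start, both on the reverse strand as TTGCATCA and TTTCATCA, and the E-box at -146. In Tars the element lay at -15 and the E-box at 19, and in Iars the element at 7 and the E-box at -69. Gars held the element at -30 and Yars at 3, where it read TGATGCAA on the gene's own strand. Positions are those of the first base of a match. The Farsa window held neither set of letters, and that of Farsb only the E-box at -39.

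Levels are given as TPM, a share of all transcripts after division by transcript length, so they can be compared between genes. The libraries held an inferred 18.5 to 19.9 × 1000000 fragments, and mean read depth over a cytosolic member was 41.5 to 884 and over a mitochondrial member 5.58 to 182. The labelled cell type was checked by its markers: Cd8a was at 409 to 433 TPM and Cd3e at 285 to 331 TPM over the 6 libraries. The 6 T cell markers summed to 2772 to 2782 TPM with vehicle and 2812 to 3060 TPM with blebbistatin. Platelet markers moved with the treatment. In the comparison described below, 4 of the 6 tested were called higher, against 1.40% of all tested genes. The sum of all 7 was 50.6 to 59.9 TPM with vehicle and 113 to 131 TPM with blebbistatin. Markers of B cells summed to at most 18.6 TPM, and those of erythroid, myeloid, neutrophil, NK and CD4 cells to at most 4.71 TPM in any library. The part of these cells in the results was not tested, and in bulk RNA fewer cells of a type and less RNA per cell cannot be told apart.

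The cytosolic synthetases stood well above the mitochondrial ones in every library. Summed over the 20 genes, the cytosolic level was 2769, 2818 and 2823 TPM in vehicle 1, 2 and 3 and 2827, 2812 and 2800 TPM in blebbistatin 1, 2 and 3. The 16 mitochondrial genes summed to 397, 413 and 422 TPM with vehicle and to 366, 394 and 385 TPM with blebbistatin. The cytosolic sum thus differed by little from library to library, while the mitochondrial sum was lower in each blebbistatin library than in any vehicle library. Without Lars2, whose level in vehicle 3 stood apart, the other 15 summed to 356, 374 and 358 TPM with vehicle and 325, 358 and 345 TPM with blebbistatin, and the groups overlapped. All 36 genes together made up 0.317% to 0.325% of all TPM.

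Kars, which charges lysine tRNA in both compartments from 1 gene, had the highest level of all members, at 332, 344 and 344 TPM with vehicle and 341, 330.4 and 344 TPM with blebbistatin. Gars, the glycine enzyme, which also serves both compartments, followed at a mean of 235 TPM over the 6 libraries. Both therefore stood above each of the other 34 members. Next came Rars, Dars, Nars, Vars and Sars, with means of 192, 186, 176, 175 and 173 TPM, and the ranges of neighbours in that order overlapped over the 6 libraries. At the lower end of the cytosolic set stood Lars with 71.4 TPM and Cars, the cysteine enzyme, with 52.6, 54.7 and 51.7 TPM with vehicle and 60.2, 50.9 and 60.4 TPM with blebbistatin.

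Relative to their lowest member, mitochondrial levels ran over a wider range, with the highest mean 9.35 times the lowest against 6.16 times in the cytosolic set. Iars2, the mitochondrial isoleucine enzyme, had the highest level, at 49.7, 54.9 and 55.5 TPM with vehicle and 51.4, 54.3 and 52.8 TPM with blebbistatin. Its exons overlap those of genes on the opposite strand, mostly Rab3gap2, over 24.2% of their length, and the library kit does not mark strand. Tars2, for threonine, was close behind with a mean of 52.5 TPM, and the ranges of both overlapped. The lowest was Ears2, for glutamate, at 5.73, 6.73 and 6.12 TPM with vehicle and 3.62, 6.67 and 5.21 TPM with blebbistatin, and Wars2, for tryptophan, overlapped it with 3.72 to 7.14 TPM over the 6 libraries. The mean levels of Nars2, Mars2 and Pars2, the asparagine, methionine and proline enzymes, lay between 7.25 and 8.46 TPM.

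**Figure D1:**
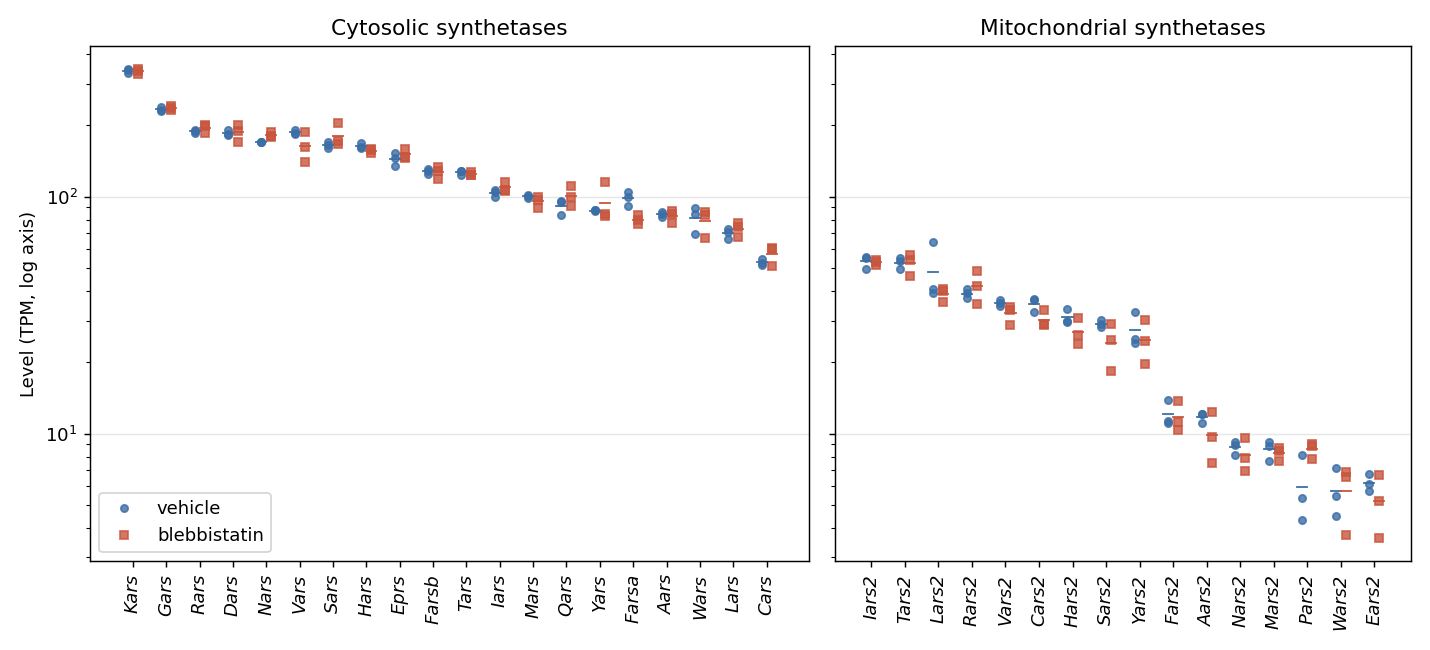
Level of each synthetase in TPM on a log axis, by gene in order of mean level, in 3 vehicle libraries (circles) and 3 blebbistatin libraries (squares), with a short line at each group mean. Kars is highest and Ears2 lowest, and the points of the 2 treatments lie close together for most genes.

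Set against the partner for the same amino acid, each cytosolic enzyme was higher in TPM than its mitochondrial one. In read coverage, compared at the end, Cars lay below Cars2 in every library. The ratio of TPM with vehicle was lowest for Cars over Cars2 (1.503 ± 0.0760, mean ± SD, n = 3 here and below) and Lars over Lars2 (1.52 ± 0.384). It was highest for the fused glutamate and proline enzyme Eprs over Pars2 (26.0 ± 7.06) and over Ears2 (23.4 ± 1.68). Isoleucine and threonine also had low ratios, 1.94 ± 0.0569 and 2.41 ± 0.0820. With blebbistatin the ratio of Cars to Cars2 was 1.91 ± 0.324 and that of Iars to Iars2 2.07 ± 0.155. Of 17 such pairs, the ratios did not overlap between the treatments in those of leucine and serine, where the exact two-sided permutation test gave p = 0.1, the smallest that 3 against 3 libraries allow. Adjusted by Benjamini-Hochberg over the 17 pairs, both were at 0.51.

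**Figure D2:**
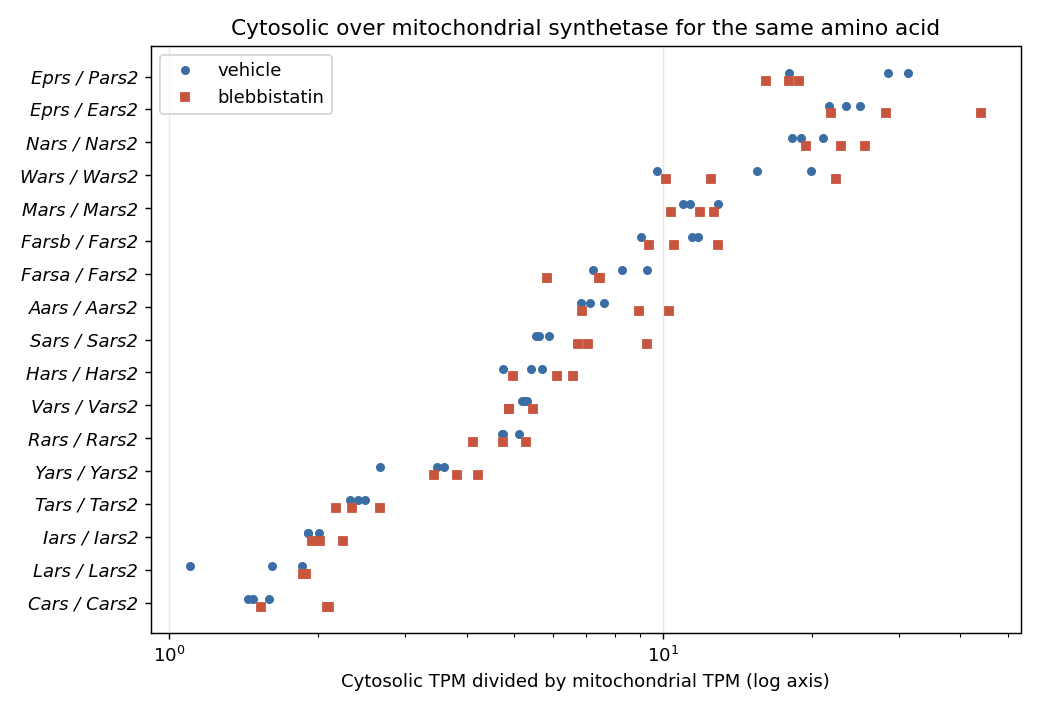
Cytosolic TPM divided by mitochondrial TPM for the same amino acid, on a log axis, 1 point per library, for 17 pairs (circles vehicle, squares blebbistatin). Ratios run from near 1 for leucine and cysteine to above 20 for glutamate and proline, and the treatments overlap in most pairs.

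Blebbistatin was compared with vehicle over all 13372 genes that averaged 1 TPM or more, on log2(TPM + 1), with limma and Benjamini-Hochberg adjustment at 0.05, and all 36 members were among them. No synthetase passed: 0 of 36 were higher, against 1.40% of all tested genes, and 0 lower, against 0.426%. In either direction 1.82% of tested genes were called. At an unadjusted p under 0.05 limma counted 3 members, Farsa, Cars2 and Pars2, against 22.9% of all tested genes. The groups did not overlap in 4 members, Nars higher and Farsa, Hars and Vars2 lower, against 18.0% of tested genes higher, 13.0% lower and 31.0% in either direction. With the 1 added to each value, a fold change comes out too small where a level is low.

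The precision was enough to bound most changes. For all 20 cytosolic members the 95% interval of the fold change lay within 1.5-fold in either direction, and its outermost bounds over the set were 0.729-fold and 1.302-fold. For 11 of 16 mitochondrial members the interval also lay within 1.5-fold, and over the set the bounds reached 0.618-fold and 1.94-fold. Over all tested genes 73.3% of the intervals lay within 1.5-fold. The 5 whose intervals went further were Lars2, Sars2, Aars2, Ears2 and Pars2. The median standard error of the log2 fold change was 0.06 in the cytosolic set, 0.13 in the mitochondrial set and 0.11 over all tested genes.

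The medians of the sets differed in size. The cytosolic median was 0.01 on the log2 scale, with 11 genes above 0 and 9 below, and the mitochondrial median was -0.12, with 2 above and 14 below. Over all tested genes the median was 0.03, and 44.9% lay below 0. After scaling by median ratios the medians were -0.02 for the cytosolic and -0.15 for the mitochondrial set, so the sign of the first depends on the scaling.

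The libraries did not contribute alike to the mitochondrial median. Against the vehicle mean it was -0.20 in blebbistatin 1, -0.01 in blebbistatin 2 and -0.13 in blebbistatin 3, with 12, 9 and 11 of 16 genes below 0. The cytosolic median was 0.05, -0.01 and 0.02 in the same libraries, and that of all tested genes 0.05, 0.02 and 0.03. Blebbistatin 2 thus stood near the vehicle mean in both sets, and on the first principal component of all tested genes it also lay nearest to vehicle, at 0.23 against -13.4 to -16.4 for vehicle and 14.5 and 30.5 for the other blebbistatin libraries. Without blebbistatin 1 the mitochondrial median was -0.07 and 10 of 16 genes were below 0.

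**Figure D3:**
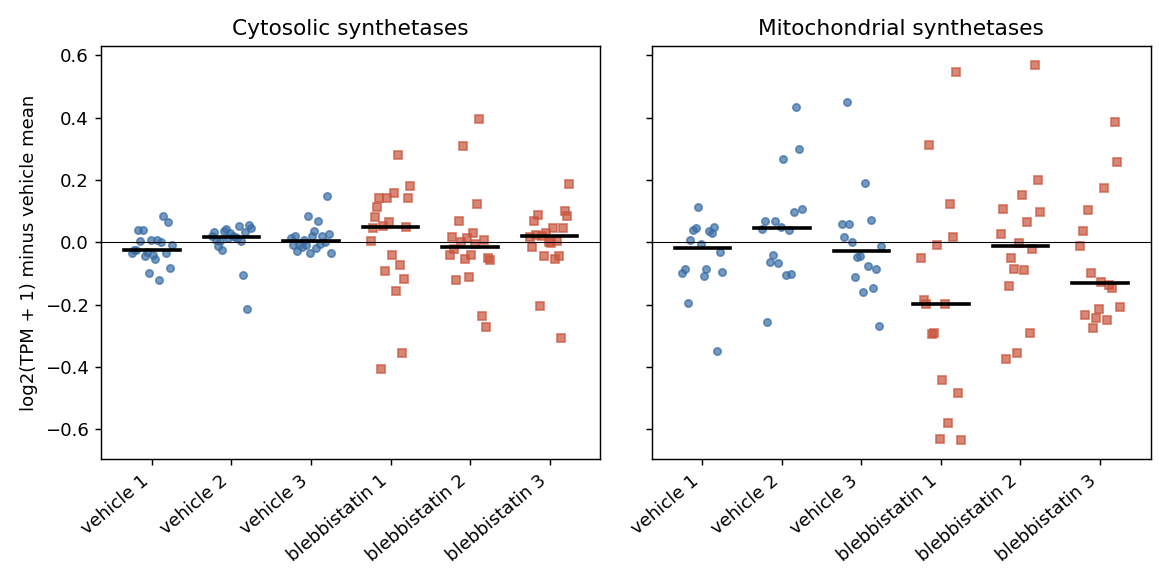
Difference of each member from its own vehicle mean on the log2(TPM + 1) scale, by library, for the cytosolic (left) and mitochondrial (right) sets, with a black bar at the median. The mitochondrial medians are -0.20, -0.01 and -0.13 in blebbistatin 1, 2 and 3, and the cytosolic ones stay near 0.

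Among the cytosolic enzymes, Farsa came nearest to the threshold. It encodes the alpha subunit of the phenylalanine enzyme, a class II synthetase built of alpha and beta chains, and lies at chr8:84856989-84869257 in GRCm38. Its level was 105, 91.7 and 99.99 TPM with vehicle and 76.9, 83.6 and 79.5 TPM with blebbistatin. All 3 blebbistatin values were below all 3 vehicle values. The log2 fold change was -0.30 (SE 0.07, 95% interval -0.46 to -0.14) and the limma adjusted p 0.0788. It was -0.33 with an adjusted p of 0.0457 by limma after adjustment for the length and GC content of transcripts, and -0.33 with 0.0435 without blebbistatin 2, so in those 2 fits it fell.

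Farsb encodes the beta subunit of the same enzyme and lies at chr1:78417975-78488897. Its exons overlap those of Sgpp2 on the opposite strand over 9.47% of their length, and the library kit does not mark strand. Farsb stood at 129, 131 and 125 TPM with vehicle and 134, 118 and 128 TPM with blebbistatin. The groups overlapped, with a log2 fold change of -0.01 (SE 0.06, 95% interval -0.16 to 0.13, limma adjusted p = 0.902). The ratio of Farsa to Farsb was 0.813, 0.702 and 0.801 with vehicle and 0.575, 0.705 and 0.620 with blebbistatin. Vehicle 2 lay just below blebbistatin 2, so the ratios overlapped and the exact two-sided permutation test gave p = 0.2, where 0.1 is the smallest possible. That pair was singled out after the values of Farsa had been seen.

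Vars, the valine enzyme, had the next largest difference, at 192, 184 and 185 TPM with vehicle and 141, 187 and 162 TPM with blebbistatin. Blebbistatin 1 was the lowest and blebbistatin 2 lay among the vehicle values. Its log2 fold change was -0.20 (95% interval -0.44 to 0.03, limma adjusted p = 0.266). It was -0.10 without blebbistatin 1, -0.31 without blebbistatin 2 and -0.03 after the length and GC adjustment. Qars, for glutamine, stood at 83.8, 94.6 and 95.8 TPM against 111, 99.4 and 91.5 TPM, and Sars, for serine, at 160.2, 169 and 166 TPM against 171, 205 and 167 TPM. In both genes the groups overlapped, with log2 fold changes of 0.14 (limma adjusted p = 0.381) and 0.13 (0.383). Qars was at 0.08 without vehicle 1 and 0.06 without blebbistatin 1, and Sars at 0.04 without blebbistatin 2. Cars had a log2 fold change of 0.10 and Kars of -0.01, with limma adjusted p of 0.461 and 0.941.

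Nars, for asparagine, and Hars, for histidine, varied so little that small differences separated the groups. Nars was at 171, 171 and 169 TPM with vehicle and 188, 178 and 181 TPM with blebbistatin, a log2 fold change of 0.10 (limma adjusted p = 0.245). Hars was at 159.8, 168 and 162 TPM with vehicle and 153, 157 and 158 TPM with blebbistatin, a log2 fold change of -0.06 (limma adjusted p = 0.452). Exons of Hars overlap those of Hars2, which lies on the opposite strand, over 7.97% of their length, and the library kit does not mark strand.

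By structure and assembly, the 9 class I genes had a median of 0.06 and the 10 class II genes one of -0.01, with Eprs, which holds a domain of each class, at 0.06. The 8 synthetases of the multi-synthetase complex (Dars, Eprs, Iars, Kars, Lars, Mars, Qars and Rars) had a median of 0.05 and the 12 others one of -0.02. Log2 fold changes within the complex ran from -0.07 to 0.14.

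The 5 cytosolic genes with TGATGNAA in the windows shown above, Aars, Gars, Iars, Tars and Yars, had log2 fold changes from -0.03 to 0.09 with a median of 0.02. The 8 cytosolic genes whose promoter held no such letters ran from -0.30 (Farsa) to 0.14 (Qars) with a median of -0.0011. The 5 members with an E-box had a median of -0.02. None of these genes passed.

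**Figure D4:**
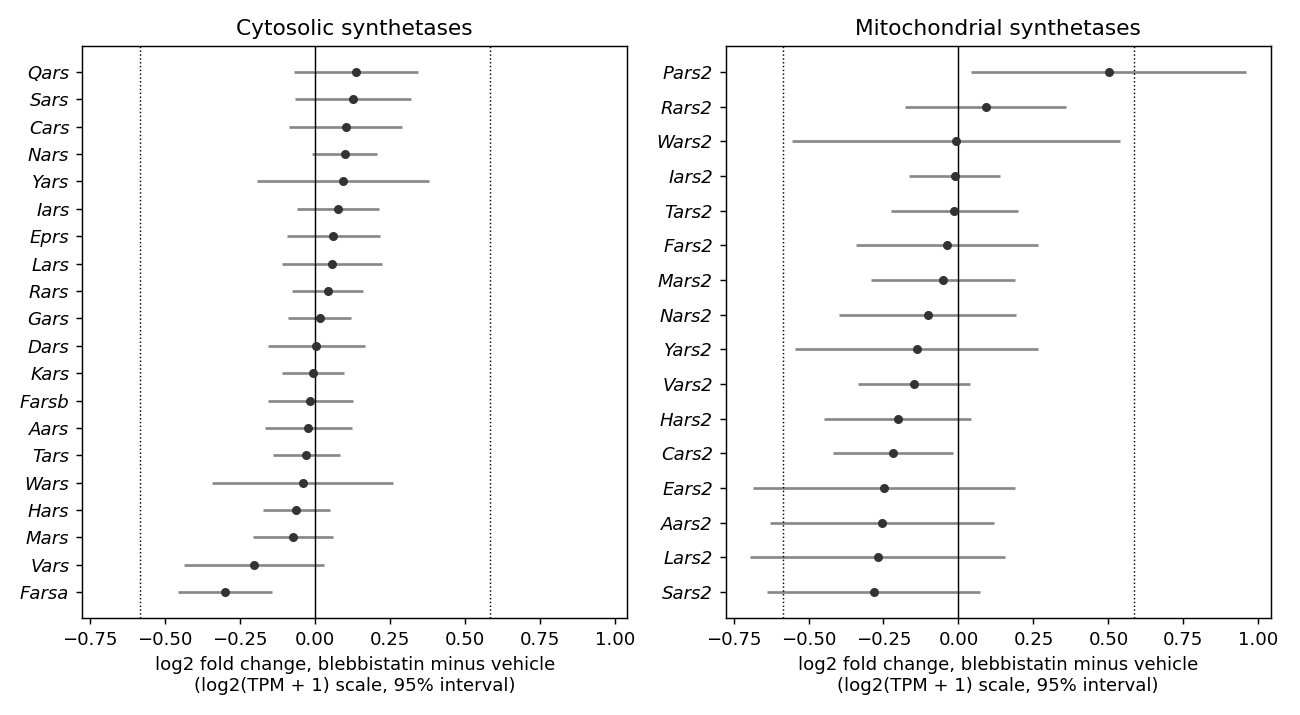
Log2 fold change of each synthetase, blebbistatin minus vehicle on the log2(TPM + 1) scale, with its 95% interval from limma, for the cytosolic (left) and mitochondrial (right) sets, and dotted lines at a 1.5-fold change. All 20 cytosolic intervals lie between the dotted lines, 11 of 16 mitochondrial intervals do, and 14 of 16 mitochondrial points lie below 0.

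Among the mitochondrial enzymes the largest difference was upward. Pars2, which charges mitochondrial proline tRNA and lies at chr4:106651069-106655282, stood at 4.30, 8.13 and 5.36 TPM with vehicle and 8.86, 9.02 and 7.83 TPM with blebbistatin. Vehicle 2 lay above the lowest blebbistatin value. The log2 fold change was 0.50 (SE 0.19, 95% interval 0.04 to 0.96) and the limma adjusted p 0.190. Mean read depth over this gene was only 7.02 to 17.3.

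Sars2, Aars2 and Ears2, for serine, alanine and glutamate, had the same order of blebbistatin libraries. Sars2 was at 29.0, 30.2 and 28.2 TPM with vehicle and 18.4, 29.1 and 24.9 TPM with blebbistatin. Aars2 was at 12.04, 12.1 and 11.1 TPM with vehicle and 7.51, 12.3 and 9.69 TPM with blebbistatin. In these 2 genes and in Ears2 blebbistatin 1 was the lowest library and blebbistatin 2 lay within or above the vehicle range. The log2 fold changes were -0.28, -0.26 and -0.25 with limma adjusted p of 0.303, 0.366 and 0.444. Without blebbistatin 1 they were -0.11, -0.09 and -0.06. After the length and GC adjustment they were -0.08, -0.10 and -0.29.

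Lars2, the mitochondrial leucine enzyme at chr9:123366927-123462666, differed through a vehicle library. It stood at 40.9, 39.2 and 64.6 TPM with vehicle and 40.8, 36.02 and 39.8 TPM with blebbistatin, so vehicle 3 was above all others. The log2 fold change was -0.27 (SE 0.18, limma adjusted p = 0.400), and -0.04 without vehicle 3.

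Cars2 and Vars2 had smaller differences. Cars2, for cysteine, was at 36.5, 37.0 and 32.5 TPM with vehicle and 28.6, 33.2 and 29.0 TPM with blebbistatin, with blebbistatin 2 just above vehicle 3 (log2 fold change -0.22, 95% interval -0.42 to -0.02, limma adjusted p = 0.191). Vars2, for valine, was at 36.6, 34.6 and 35.6 TPM with vehicle and 28.8, 34.3 and 33.2 TPM with blebbistatin, with no overlap (-0.15, limma adjusted p = 0.306). Blebbistatin 1 was again the lowest, and Vars2 was at -0.08 without that library and at -0.04 after the length and GC adjustment. The other 9 mitochondrial members (Fars2, Hars2, Iars2, Mars2, Nars2, Rars2, Tars2, Wars2 and Yars2) had log2 fold changes from -0.20 (Hars2) to 0.09 (Rars2), and their groups overlapped.

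The genes that work beside the synthetases were read from a list of 49, of which 47 were tested. Aimp2, a scaffold of the multi-synthetase complex, was at 123, 119 and 112 TPM with vehicle and 90.8, 100.1 and 92.2 TPM with blebbistatin. The groups did not overlap, and the log2 fold change was -0.32 (SE 0.06, 95% interval -0.47 to -0.18, limma adjusted p = 0.0564). As for Farsa, the adjusted p by limma was below 0.05 after the length and GC adjustment (0.0332, log2 fold change -0.27) and without blebbistatin 2 (0.0248, -0.37). Exons of Aimp2 overlap those of Eif2ak1 on the opposite strand over 29.4% of their length, and without strand the reads of this stretch cannot be told apart. The other scaffolds, Aimp1 and Eef1e1, had log2 fold changes of 0.11 and -0.05 (limma adjusted p = 0.385 and 0.657).

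**Figure D5:**
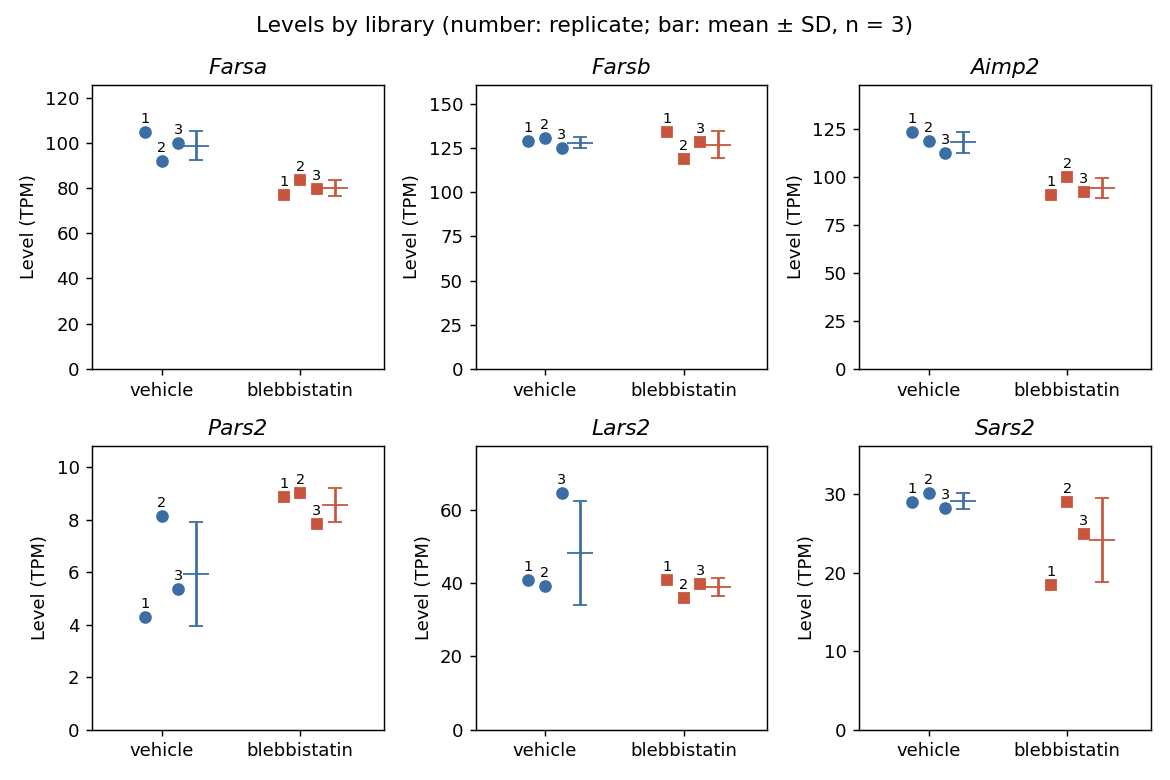
Levels in TPM of Farsa, Farsb, Aimp2, Pars2, Lars2 and Sars2 in each library, numbered by replicate, with mean ± SD (n = 3). In Farsa and Aimp2 all blebbistatin libraries are below all vehicle libraries, whereas Lars2 differs through vehicle 3. In Sars2 blebbistatin 1 is lowest, and blebbistatin 3 is also below all vehicle libraries.

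Further along the pathway, 0 of 4 synthetases and related enzymes outside the set and 0 of 5 trans-editing factors that clear mischarged tRNA passed. So did 0 of 4 enzymes that finish charged tRNA in mitochondria and 0 of 9 elongation factors. By limma 1.82% of all tested genes were called in either direction. At an unadjusted p under 0.05 by limma these lists held 1, 0, 0 and 2 genes, against 22.9% of all tested genes. The members of highest level in the last 3 of these lists, with the cytosolic and mitochondrial elongation factors taken apart, Aarsd1, Gatc, Eef1a1 and Tufm, had log2 fold changes of -0.08, -0.17, 0.07 and -0.09. Myc itself averaged 155 ± 5.60 TPM in vehicle libraries against 154 ± 16.6 TPM in blebbistatin libraries.

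Among ATF4 and its known targets outside the synthetases, 2 of 20 tested genes rose and 0 fell, where 1.40% of all tested genes were called higher. Atf3, a stress-induced transcription factor, rose from 13.1, 12.5 and 13.3 TPM to 17.6, 19.8 and 19.7 TPM (log2 fold change 0.52, limma adjusted p = 0.0335). Sesn2, a sestrin that restrains mTORC1 and is also a p53 target, rose from 25.02, 24.4 and 24.2 TPM to 31.1, 38.0 and 36.5 TPM (0.50, limma adjusted p = 0.0449). Neither passed without vehicle 1, 2 or 3 or without blebbistatin 3, where the limma adjusted p was 0.129 to 0.165, nor with genes below 1 TPM kept in the fit (0.0680 and 0.0877). Atf4 averaged 256 ± 5.12 TPM in vehicle libraries against 241 ± 14.6 TPM in blebbistatin libraries, Asns, which makes asparagine, at 33.7 ± 2.34 against 37.0 ± 3.02 TPM, and Phgdh, of serine synthesis, at 413 ± 1.66 against 384 ± 40.7 TPM. The median of the list was -0.06, with 8 tested genes above 0 and 12 below.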

How the data were processed

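RNA from 6 libraries, 3 per treatment, was sequenced after a TruSeq v2 preparation, which does not mark strand. The submitters' processing notes name HISAT2 2.1.0, StringTie 1.3.4 and DESeq2 1.22.2 with build mm10, with no role or order. TPM, FPKM and read coverage per gene were deposited by the authors as such, per the file headers, and no count was used. In each library 12 to 14 rows stood for 1 gene at several places. Their deposited values were used as given, and these rows were left out only when fragments were inferred. The test was limma 3.58.1 in R 4.3.3 with an intensity trend on log2(TPM + 1), over genes averaging at least 1 TPM, with Benjamini-Hochberg adjustment at 0.05 and no replicate block. In simulated data it recovered 61% of 1.5-fold and 93% of 2-fold changes planted in genes averaging at least 5 TPM, with 10 false calls. With no change planted it called 0 genes. Fragments per library were inferred from the coverage that 1 FPKM stands for, at 300 aligned bases per fragment. That was the most common value among genes with few aligned bases, but only 4.68% to 5.32% of them were at it, so the depth is approximate. Synthetases and pathway lists were chosen with earlier results of these data known. Values in every library are given for called genes, for the 5 largest differences and the highest and lowest level in each compartment, and for members the text singles out, some of them (Nars, Hars, Cars2, Vars2, Aimp2) after their values were seen. For other pathway genes, the called ones and the highest of each list are named, except 1 gene that is not reported here. Same-numbered libraries did not deviate together. Alternatives were other pseudocounts, minimum levels, scalings and variance settings, FPKM, a length and GC adjustment, a replicate block and leaving out each library.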

Additional observations from a re-analysis of the deposited data

How the results depend on the processing

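No mitochondrial synthetase passed under any of the 17 refitted alternatives. In the cytosolic set 1 gene, Farsa, passed after the length and GC adjustment, and 0 to 1 when 1 library was left out, Farsa alone without blebbistatin 2; its limma adjusted p without any other library was 0.127 to 0.232. Over all tested genes limma called 49 with no minimum level, 160 with no trend and 437 (264 higher and 173 lower, 60.4% higher against 76.6%) with the length and GC adjustment. Leaving out 1 library gave 3 to 1090 calls (13, 11 and 7 without vehicle 1, 2 and 3, 120, 1090 and 3 without blebbistatin 1, 2 and 3). The replicate block gave 0 calls by limma, with 2628 genes at an unadjusted p under 0.05, 4 of them members. Same-numbered libraries correlated at 0.01, -0.04 and -0.03 in their deviations from the group means. That cannot settle whether the samples were paired, since the labels do not say how the replicates arose. With the block, the limma adjusted p of Atf3 and Sesn2 was 0.135 and 0.137. Sesn2 also did not pass with median-ratio scaling (0.0601) or no trend (0.0635). The cytosolic median was 0.051 with quantile normalization, and 0.01 to 0.03 without 1 library, and the mitochondrial one -0.14 to -0.07. Signs turned for some members near 0, among them Farsb 0.0077, Iars2 0.0093 and Kars 0.027 with quantile normalization. With depth-scaled coverage they included Yars -0.065, Iars2 0.0028 and Dars -0.0017. With quantile normalization 6 cytosolic and 12 mitochondrial members lay below 0, against 9 and 14 without it. After the length and GC adjustment 12 and 15 did. Leaving out 1 library gave Farsb -0.054 to 0.033, Iars2 -0.063 to 0.016, Kars -0.024 to 0.010 and Yars -0.058 to 0.18. Values that moved by over 1.5 times also include Pars2 (0.33 without vehicle 1 or with a pseudocount of 5), Cars (0.06 to 0.18 without 1 blebbistatin library), Nars (0.04 with the length and GC adjustment, 0.15 with quantile normalization) and Hars (-0.01 with quantile normalization, -0.04 without vehicle 2). Of 357 refitted values over 21 named genes, 328 kept direction and side of the threshold. Only Atf3 and Sesn2 of these genes were called before refitting, so for the others staying uncalled was likely from the start. The 14 values that lost a call were all of Atf3 or Sesn2. Mean read depth was as low as 5.58 in a mitochondrial member, Ears2, against at least 41.5 in the cytosolic ones, and the median standard error was 0.13 against 0.06. With a library left out 2 are set against 3.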

Other observations

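Read coverage was also compared, each gene's coverage divided by the coverage that 1 FPKM stands for in its library, a setting chosen after seeing the data and given with no test. Its log2 differences were taken without the 1 added to TPM. At low levels, as in Pars2, the sizes of both are therefore not directly comparable. For most members it gave nearly the same difference as TPM: the median was -0.01 in the cytosolic and -0.12 in the mitochondrial set. Yars, the tyrosine enzyme, was an exception. Its TPM was 87.4, 87.6 and 86.9 with vehicle and 82.9, 115 and 84.7 with blebbistatin, so blebbistatin 2 stood far above the rest. Its scaled coverage was 17.1 in each vehicle library and 16.2, 16.4 and 16.6 with blebbistatin, where blebbistatin 2 did not stand out and the groups did not overlap. Sars, at 0.13 in TPM with blebbistatin 2 highest, had a log2 difference of 0.03 in scaled coverage. Tars2 had a log2 difference of -0.22 in scaled coverage and -0.01 in TPM. Pars2 had one of 0.80, with values of 1.27, 2.00 and 1.35 with vehicle and 2.95, 2.75 and 2.19 with blebbistatin, which do not overlap, unlike its TPM. In Lars2 vehicle 3 stood apart in scaled coverage too, at 30.5 against 17.1 to 19.6 in the other libraries. Between genes, the order of the cysteine pair differed from that in TPM. Scaled coverage of Cars was 7.50, 7.51 and 7.21 with vehicle and 7.90, 7.49 and 8.07 with blebbistatin. That of Cars2 was 17.5, 17.5 and 15.4 with vehicle and 13.4, 15.8 and 13.7 with blebbistatin. In the other pairs the cytosolic enzyme was the higher one in scaled coverage too.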
